A study of Rattus norvegicus with 156 samples.

Results

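Gabapentin was given to rats without nerve injury, and their nervous tissues were compared with those of naive rats. The comparison used RNA pools of naive rats given gabapentin and of naive rats, matched by tissue and side in 9 compartments, which makes 18 of the 52 RNA pools measured and 54 of 156 arrays. The compartments were the L4 dorsal root ganglia (DRG) of both sides, the L5 and L6 DRG of the ipsilateral side, the sciatic nerve of both sides, the spinal cord of both sides, and brain. The drug was injected into the abdomen once a day on 7 days, at 100 mg per kg, and the naive rats without it belong to the study's vehicle group. Neither group had surgery, so "ipsilateral" and "contralateral" are labels of side only.

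Each treatment and compartment had 1 pool of 4 to 6 rats, killed at the time that was 19 to 21 days after surgery in the operated groups. Sham rats (spinal nerves exposed, vehicle), ligated rats (L5 and L6 spinal nerves tied, vehicle) and ligated rats with gabapentin are used below only to place the values of the naive pools. The sources used here do not say whether the tissues of a pool came from the same rats. A mean over compartments therefore has a p value that measures the spread between compartments of the same pools, not between rats.

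Gabapentin was made to resemble GABA, the main inhibitory transmitter of the brain. It binds the alpha2delta-1 protein, an accessory subunit of voltage-gated calcium channels encoded by Cacna2d1, and large amino acid transporters carry it across membranes. Sensory neurons, whose cell bodies lie in the DRG, make alpha2delta-1 and send it along their axons to the spinal cord. Thrombospondins are matrix proteins that also bind alpha2delta-1.

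Signals below are array units after quantile normalization of the pools of a compartment. Differences are log2 differences, pools of naive rats with gabapentin minus naive pools, of signal plus a small constant. The median signal of an array in naive pools with gabapentin ranged from 11.6 to 52.9, against 10.8 to 41.3 in naive pools. Markers went with the labels of DRG, nerve and brain. The nociceptor sodium channel gene Scn10a was 8.01 to 15.4 times its array's median in DRG and below that median in the other tissues. The myelin gene Pmp22 was 313 to 402 times the median in nerve, against 114 to 206 in DRG and 102 to 156 in cord. Camk2a, a kinase gene, separated brain only slightly, at 5.84 to 6.21, against 3.71 to 5 in DRG, 3.59 to 4.42 in nerve and 4.16 to 4.43 in cord. Some pools stood apart. The ratio of the 3′ to the 5′ control probe set of Gapdh, which is higher where RNA is degraded, was 7.38 in the naive ipsilateral nerve, against 1.60 in its partner with gabapentin, and at most 2.91 in the other pools. Array B of the ipsilateral cord with gabapentin had 2.57 times the median of its naive partner. The naive brain pool carried pituitary genes, and naive pools of DRG and nerve carried more muscle RNA than their partners; both are given with those tissues below. In pooled tissue, fewer cells of a type and less RNA per cell cannot be told apart.

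Over the 9 compartments, 2 of 15721 probe sets passed the test, or 0.0127% (limma, Benjamini-Hochberg adjusted p under 0.05). The probe set that fell measures Alox15, which encodes a lipoxygenase, an enzyme that oxidises arachidonic acid. The probe set that rose measures Btbd2, which encodes a BTB domain protein. An unadjusted p under 0.05 was found for 1033 probe sets, or 6.57%, and 107, or 0.681%, differed in the same direction in all 9 compartments.

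The Alox15 probe set gave 3.78 and 3.24 in the ipsilateral and contralateral L4 DRG with gabapentin, against 54.6 and 105 in naive pools. In L5 and L6 DRG it gave 4.80 and 7.94 with gabapentin, against 52.7 and 67.0 in naive pools. In the 2 nerves it gave 4.30 and 3.08 with gabapentin, against 27.0 and 14.3 in naive pools. In the cord it gave 14.0 and 9.94 with gabapentin, against 110 and 76.4 in naive pools, and in brain 4.76 with gabapentin, against 102 in the naive pool. It was lower with gabapentin in 9 of 9 pairs, and the highest value with gabapentin, 14.0, lay below the lowest naive value, 14.3. The mean log2 difference was -2.48 ± 0.21 (SE, n = 9 compartments; limma, adjusted p = 0.000424). The probe set lay below the array's filter level, the 40th percentile of probe sets of its compartment, in 9 of 9 pools with gabapentin and in 1 of 9 naive pools. It was thus tested only through the naive pools. With signals this near the floor the added constant sets the size of the difference, which was -3.17 with a constant of 1 and -1.69 with the constant at the 40th percentile, and no fold is given.

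This probe set was singled out after its values were seen. A brighter probe set of Alox15, which represents the gene by the rule used for all genes, had a median of 70.3 with gabapentin and 114 in naive pools. It was lower in 9 of 9 pairs, with a mean log2 difference of -0.61 ± 0.11 (limma, adjusted p = 0.185). In sham pools the first probe set gave 31.3 to 56.7 in DRG and 41.8 and 41.1 in cord, but 4.42 and 3.30 in nerve and 4.02 in brain. The pools with gabapentin lay below both the naive and the sham pool in 8 of 9 compartments, brain being the exception. In ligated rats the mean difference, pools with gabapentin minus pools without it, was 0.48. Against sham pools the naive pools with gabapentin had a mean difference of -1.25 (limma, adjusted p = 0.048). Over 22 settings the difference ranged from -3.17 to -1.25 and passed in 20.

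**Figure D1:**
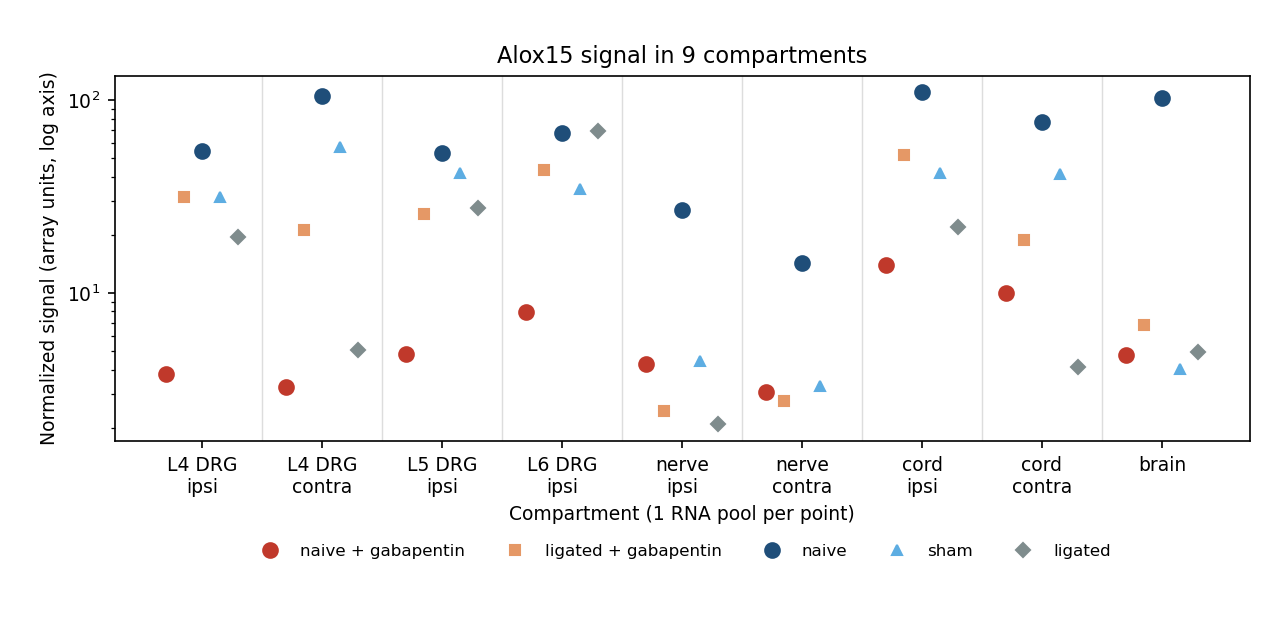
Signal of the lower Alox15 probe set on a log axis, by compartment, with 1 point per RNA pool. Naive pools with gabapentin lie at 3.08 to 14.0 and naive pools at 14.3 to 110, while sham and ligated pools are spread between and beyond them.

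Markers of blood were lower in the same pools, and their part in the Alox15 result was tested only by a covariate. All 5 kept red blood cell markers had a negative mean log2 difference over the 9 compartments, with a median of -0.48, against 0.004 for all kept probe sets, and none passed the test. Hbb-bs, a beta-globin gene, had signals of 252 to 1165 with a median of 499 in pools with gabapentin, and of 438 to 2080 with a median of 1408 in naive pools. Its mean log2 difference was -1.13 ± 0.20 and it was lower in 9 of 9 pairs (limma, adjusted p = 0.169). With the mean difference of the red blood cell markers as a covariate, added after the data were seen, the Alox15 difference was -1.99 (limma, adjusted p = 0.252) and no probe set passed.

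Btbd2 had signals of 290 and 241 in L4 DRG, 298 in L5 and 226 in L6 with gabapentin, against 203, 177, 190 and 166 in the naive pools. It had 95.5 and 81.5 in nerve with gabapentin, against 57.5 and 65.2 in naive nerve. In cord it had 184 and 173 with gabapentin, against 128 and 130 in naive cord, and in brain 238 with gabapentin, against 134 in naive brain. It was higher with gabapentin in 9 of 9 pairs, with a mean log2 difference of 0.52 ± 0.07 (limma, adjusted p = 0.0234), or 1.43-fold. Its level with gabapentin was above both the naive and the sham pool in 9 of 9 compartments. The difference over ligated pools was 0.11, and the Btbd2 call held in 7 of 22 settings tried. Against sham pools its mean difference was 0.36 (limma, adjusted p = 0.0569).

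Cacna2d1, the drug's target, showed no common direction over the compartments. Its signals in L4 DRG were 85.5 and 81.1 with gabapentin, against 57.8 and 53.0 in naive pools. In L5 and L6 DRG they were 90.2 and 68.9 with gabapentin, against 80.3 and 105 in naive pools. In nerve they were 14.9 and 33.7 with gabapentin, against 86.3 and 102 in naive pools. In cord they were 42.9 and 36.4 with gabapentin, against 21.9 and 34.6 in naive pools, and in brain 80.8 with gabapentin, against 127 in the naive pool. The signal was higher in 5 pairs and lower in 4, and the mean log2 difference was -0.30 (SD 0.997, n = 9 compartments; limma, adjusted p = 0.871).

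**Figure D2:**
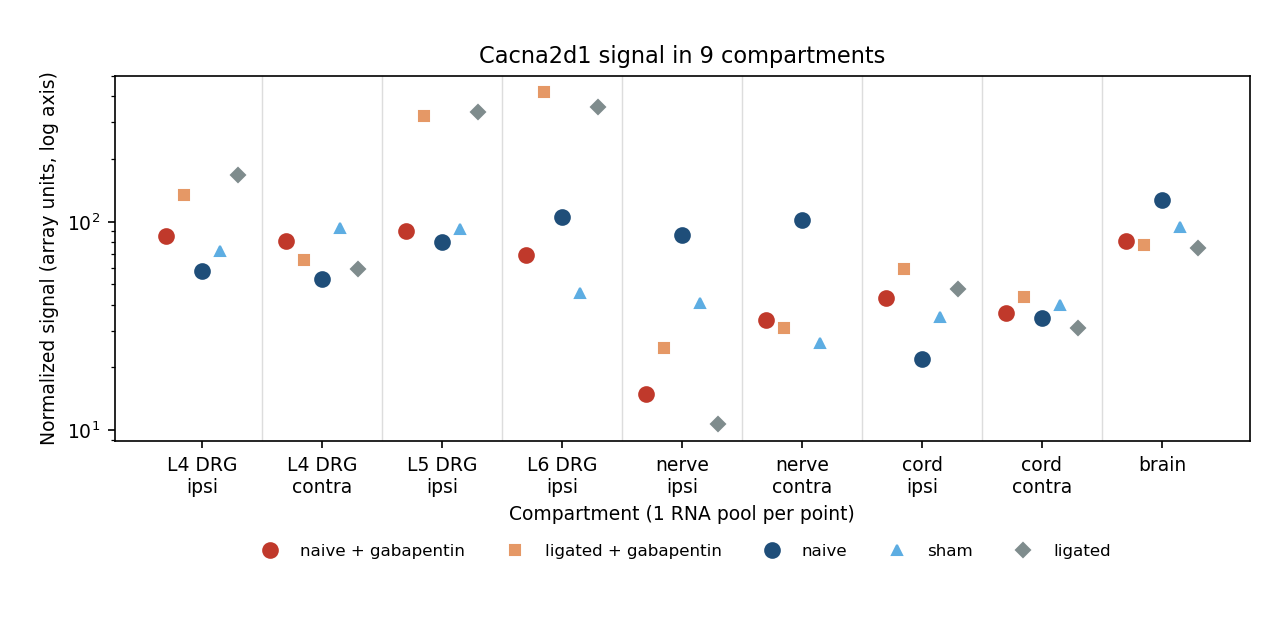
Signal of Cacna2d1 on a log axis, by compartment, with 1 point per RNA pool. The largest gaps between naive pools with gabapentin and naive pools are in the 2 nerves, where sham pools lie at 40.5 and 26.2, and ligated pools are highest in L5 and L6 DRG.

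Of the calcium channel list, 14 of 25 genes were on the arrays, 10 were kept, and none passed over the 9 compartments. Their median mean difference was -0.06. Cacna1b, the pore subunit of N-type channels, had a mean of -0.23, Cacna1a, the pore subunit of P/Q-type channels, 0.05, and Cacnb3, an intracellular beta subunit, 0.05. Cacna1g, Cacna1h, Cacna1c, Cacna1e and Cacnb1 had means of 0.04, 0.05, -0.20, -0.16 and 0.09. Cacng1, the gamma subunit of skeletal muscle, had -0.36, set mostly by the contralateral nerve at -2.04. Among those below the filter, Cacnb2 had 0.53, Cacnb4 0.18, Cacna1d 0.09, and Cacna1s, the pore subunit of skeletal muscle, -0.69. Cacna1s had 27.6 and 7.84 in the 2 nerves with gabapentin, against 69.9 and 165 in naive nerves.

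None of the 11 kept members of a list of amino acid transport and related metabolism passed over the 9 compartments. With the deposited scaling this list's median was 0.04, where that of all probe sets was 0.17. With quantile normalization it was -0.12, where that of all probe sets was 0.004. Slc7a5 and Slc3a2, which form the large amino acid transporter LAT1, had mean differences of -0.12 (SD 0.423) and 0.11 (SD 0.527). Slc7a8, a related transporter, had -0.11, Slc43a2 -0.19, and Slc22a5, a carnitine transporter, -0.40, lower in 8 of 9 pairs. Bcat1 and Bcat2, transaminases of branched-chain amino acids, had 0.15 and -0.13, and Bckdha and Bckdhb, subunits of the next enzyme in that pathway, -0.18 and -0.22. Glud1, glutamate dehydrogenase, had 0.11. Glul, glutamine synthetase, had 0.36 ± 0.12 and was higher in 7 of 9 pairs (limma, adjusted p = 0.638).

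Thbs4, thrombospondin 4, had a mean difference of -0.20. Its signals were 80.6 and 70.8 in L4 DRG with gabapentin, against 84.5 and 77.0 in naive pools, and 682 and 833 in nerve with gabapentin, against 530 and 609 in naive nerve. In L5 and L6 DRG they were 90.6 and 96.3 with gabapentin, against 161 and 137 in naive pools. In cord they were 36.8 and 32.6 with gabapentin, against 46.4 and 57.0 in naive cord. The signal was higher in 2 pairs, both of nerve, and lower in 7. Comp, the other thrombospondin on the arrays, was below the filter, with a mean of 0.03. None of the kept members of the lists of GABA genes (14), glutamate receptors and transporters (19), sodium channels (11), potassium channels (22), neuropeptides (16) or synaptic vesicle genes (21) passed over the 9 compartments, and their medians lay between 0 and 0.10.

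Clock genes, which vary with the hour of death, had a median mean difference of 0 over 10 kept genes, and none passed. Dbp, a clock output gene, had -0.25 (SD 0.482) and Per2, a core repressor, 0.18 (SD 0.897), with -1.69 in L6 DRG and 1.71 in the ipsilateral cord. Nr1d1, Nr1d2, Cry2, Tef, Hlf, Npas2, Bhlhe40 and Bhlhe41 had means of -0.01, 0.14, -0.07, -0.12, 0.09, -0.08, 0.02 and 0.00. Bmal1 and Rorb, below the filter, had -0.02 and 0.10.

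**Figure D3:**
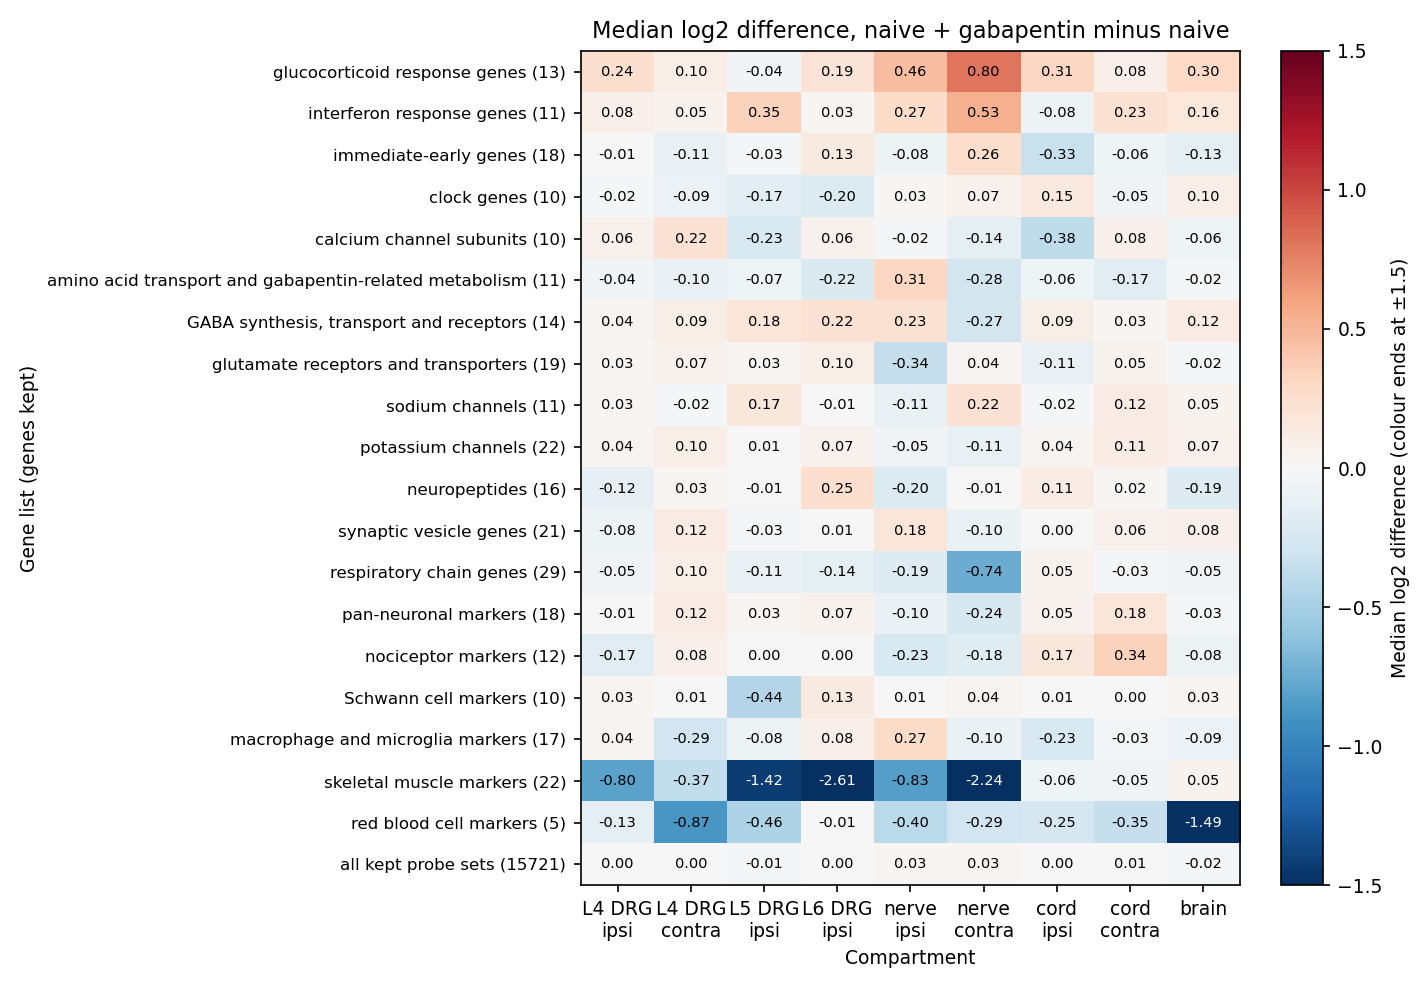
Median log2 difference of the kept genes of 19 lists and of all kept probe sets, naive pools with gabapentin minus naive pools, in 9 compartments. Glucocorticoid response genes are above 0 in 8 of 9 compartments, skeletal muscle markers are far below 0 in DRG and nerve, and red blood cell markers are below 0 throughout.

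Genes that glucocorticoids switch on had the highest median mean difference of the pathway lists, and were singled out after their values were seen. Glucocorticoids are the adrenal stress hormones, which act through a nuclear receptor. Of 18 listed genes, 16 were on the arrays and 13 were kept. Of these 11 had a positive mean and 2 a negative one, and the median was 0.25. No member passed over the 9 compartments, where 0.0127% of all probe sets did. The median was 0.24 with median scaling and 0.46 with the deposited scaling, where that of all probe sets was 0.17. Set against sham pools the list's median was 0.16. In the ligated pair of pools, which shares no sample with the naive pair, it was 0.24.

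Sgk1, a kinase that regulates ion channels, had signals of 238 in brain and 196 and 171 in cord with gabapentin, against 105 in naive brain and 109 and 115 in naive cord. In nerve it had 183 and 216 with gabapentin, against 103 and 126 in naive pools. In DRG it had 76.1, 75.0, 84.5 and 60.4 with gabapentin, against 63.4, 66.7, 86.9 and 42.1 in naive pools. It was higher in 8 of 9 pairs, with a mean of 0.54 ± 0.11 (limma, adjusted p = 0.27), and 1.30 above sham pools. Errfi1, a feedback inhibitor of epidermal growth factor receptors, Ddit4, an inhibitor of the growth regulator mTORC1, and Nfkbia, the inhibitor of NF-kappaB, were each higher in 9 of 9 pairs, with means of 0.54 ± 0.16, 0.56 ± 0.13 and 0.42 ± 0.09 (limma, adjusted p = 0.569, 0.411 and 0.329). Errfi1 lay above both the naive and the sham pool in 9 of 9 compartments, and Sgk1, Ddit4 and Nfkbia in 8 of 9. The remaining kept members ranged from -0.29 for Angptl4, an inhibitor of lipoprotein lipase, to 0.36 for Glul.

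In sciatic nerve, 40 probe sets rose, or 0.254%, and 57 fell, or 0.363%, in the fit by tissue (limma, adjusted p under 0.05, n = 2 sides). The balance turned with the scaling: 17 rose and 3 fell with the deposited scaling, and 30 rose and 25 fell with median scaling. Of the 40 that rose, 11 were below the nerve filter level in naive nerves, and of the 57 that fell, 12 were below it in nerves with gabapentin, so these were tested only through the group where they were high. Of 15 glucocorticoid response genes tested in nerve, 4 rose and none fell. Errfi1 rose by 1.37 ± 0.22, Fkbp5 by 1.62 ± 0.26, Ddit4 by 1.24 ± 0.20 and Tsc22d3 by 0.86 ± 0.14 (adjusted p = 0.0282, 0.028, 0.0278 and 0.0309). Fkbp5 encodes a chaperone that restrains the glucocorticoid receptor, and Tsc22d3 the glucocorticoid-induced leucine zipper protein. Fkbp5 had 33.5 and 40.9 in the nerves with gabapentin, against 7.76 and 8.03 in naive nerves. It is one of the 11, so its passing is no support for the list's count. With no filter the adjusted p was 0.0447 for Fkbp5, 0.046 for Ddit4, and 0.0504 for both Errfi1 and Tsc22d3. Tsc22d3 had 404 and 483 with gabapentin, against 219 and 266 in naive nerves. Sgk1 had a nerve difference of 0.78 (adjusted p = 0.0599). The sequences before the start of the 4 genes that rose are shown with those of Sult1a1, a sulfotransferase of the same list, because the glucocorticoid receptor binds DNA through the motif AGAACA, which reads TGTTCT on the other strand. They are the 250 bases before the RefSeq start in build GRCr8: chr5:166606591-166606840 (plus strand), chr20:6543556-6543805, chr20:28437038-28437287, chrX:109066390-109066639 and chr1:190706113-190706362 (minus strand). Capitals mark this motif on either strand.
Errfi1: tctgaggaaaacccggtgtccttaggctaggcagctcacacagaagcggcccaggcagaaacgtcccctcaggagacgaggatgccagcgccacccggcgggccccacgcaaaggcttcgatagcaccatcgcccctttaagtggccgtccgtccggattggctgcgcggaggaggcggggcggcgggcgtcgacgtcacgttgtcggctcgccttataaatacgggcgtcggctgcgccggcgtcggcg
Fkbp5: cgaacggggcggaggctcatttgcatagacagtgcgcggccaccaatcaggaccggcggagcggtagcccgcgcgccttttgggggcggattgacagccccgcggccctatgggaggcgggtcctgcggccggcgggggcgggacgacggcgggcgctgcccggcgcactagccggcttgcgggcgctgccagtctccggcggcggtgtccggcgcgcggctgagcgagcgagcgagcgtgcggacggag
Ddit4: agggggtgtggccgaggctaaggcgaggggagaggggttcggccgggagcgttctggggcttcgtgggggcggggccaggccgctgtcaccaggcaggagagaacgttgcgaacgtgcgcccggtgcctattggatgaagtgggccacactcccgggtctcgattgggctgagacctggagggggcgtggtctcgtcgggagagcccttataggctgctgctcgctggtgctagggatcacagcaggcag
Tsc22d3: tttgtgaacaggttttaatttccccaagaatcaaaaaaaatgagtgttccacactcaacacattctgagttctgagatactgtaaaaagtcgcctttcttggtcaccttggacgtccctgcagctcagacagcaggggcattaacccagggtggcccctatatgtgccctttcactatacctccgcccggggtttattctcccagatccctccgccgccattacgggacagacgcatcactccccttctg
Sult1a1: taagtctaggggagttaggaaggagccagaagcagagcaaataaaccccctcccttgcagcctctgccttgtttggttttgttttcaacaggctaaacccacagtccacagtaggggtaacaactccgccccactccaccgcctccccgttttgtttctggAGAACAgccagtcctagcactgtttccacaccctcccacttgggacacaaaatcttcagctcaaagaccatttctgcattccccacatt
The motif was found before the start of 1 of the 16 list members with a promoter in the table, Sult1a1, and in 5865 of 33469 promoters, or 17.5%. Sult1a1 had a nerve difference of 0.72 (adjusted p = 0.0864).

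The other leading rises in nerve were Ccn2, a connective tissue growth factor, by 2.39 ± 0.35, Gpc6, a heparan sulfate proteoglycan, by 1.67 ± 0.28, Sv2b, a synaptic vesicle protein, by 1.46 ± 0.22, and Cpxm2, a carboxypeptidase family member, by 1.36 ± 0.20. Ccn2 had 275 and 286 with gabapentin, against 26.2 and 91.8 in naive nerves and 202 and 197 in sham nerves. It was above the nerve filter level in both groups. Gpc6, Sv2b and Cpxm2 were not checked singly against that level, and the lowest naive signal of Sv2b over the compartments was 7.1. Of the complement list, 19 genes were tested in nerve, of which 2 rose and 1 fell. Of all probe sets 0.254% rose and 0.363% fell there. Clu and Serping1, regulators of complement, rose by 0.60 and 0.77, and Masp1, a protease of the lectin pathway, fell by 1.46 (adjusted p = 0.0411, 0.0457 and 0.0146).

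The 6 largest falls in nerve included Actn2, a listed skeletal muscle marker, and 5 genes that are not on that list. The differences were -2.53 ± 0.25 for Hhatl, -2.42 ± 0.29 for Tuba4a, a tubulin, -2.41 ± 0.33 for Txlnb, a muscle taxilin, -2.40 ± 0.45 for Mybpc1, a myosin-binding protein, -2.39 ± 0.30 for Sh3bgr, and -2.36 ± 0.38 for Actn2, a protein of the muscle Z-disc (limma, adjusted p between 0.00359 and 0.0497). Hhatl was below the filter level in nerves with gabapentin, so it was tested only through the naive nerves. Actn2 was above that level in both groups. Tuba4a, Txlnb, Mybpc1 and Sh3bgr were not checked singly against it. Their lowest signals with gabapentin over the compartments were 4.375, 1.86, 8.59 and 6.8, so their calls may carry the same limit. Of 27 skeletal muscle markers tested in nerve, 3 passed and all 3 fell, where 0.363% of all probe sets fell. They were Actn2, Cox6a2, a muscle form of a respiratory chain subunit, and Des, desmin. Ckm, muscle creatine kinase, had 2427 and 1690 in nerves with gabapentin, against 4105 and 6267 in naive nerves, and 1724 and 1050 in sham nerves. Cacna2d1, which muscle also makes, fell by 1.80 ± 0.30 in nerve (adjusted p = 0.0283, and 0.0539 with no filter), to 14.9 and 33.7, against 86.3 and 102 in naive nerves.

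Muscle markers were higher in naive pools of DRG than in their partners as well. They also varied among the other pools. Their mean log2 level in ipsilateral L4 DRG was 5.69 in the naive and 7.45 in the ligated pool. In L5 it was 7.4 in the naive and 8.16 in the ligated pool with gabapentin. In contralateral L4 and in L6 the naive pool was the highest, at 5.13 and 7.59. The median difference over 22 kept markers was -0.80, -0.37, -1.42 and -2.61 in the ipsilateral L4, contralateral L4, L5 and L6 DRG, -0.83 and -2.24 in the 2 nerves, and -0.06, -0.05 and 0.05 in cord and brain. In L6 DRG Ckm had 35.3 with gabapentin, against 1297 in the naive pool. With the muscle markers' median as a covariate, added after the data were seen, 0 probe sets passed in nerve, against 97 without it, and the Cacna2d1 difference was -1.40 (limma, adjusted p = 0.563). The covariate also widened the SE, from 0.30 to 0.43 for Cacna2d1 and from 0.35 to 0.54 for Ccn2, whose difference stayed at 2.39. The count of 0 therefore does not separate lost precision from smaller differences. In that fit Errfi1 had 1.17, Fkbp5 1.33, Ddit4 1.06 and Tsc22d3 0.61 (adjusted p = 0.563, 0.563, 0.562 and 0.571). Their signs held, but so did those of Hhatl, at -2.38, Actn2, at -1.55, and Ccn2, at 2.39. Ckm turned, from -1.32 to 1.09. Against sham nerve, Cacna2d1 had -0.43, Hhatl -0.53 and Actn2 -0.02, while Errfi1 had 0.70, Fkbp5 1.19, Ddit4 1.82 and Tsc22d3 1.18 (adjusted p = 0.246, 0.227, 0.0728 and 0.0608), and none of 15721 probe sets passed. The part of the naive nerve pools' RNA quality in these results was not tested.

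**Figure D4:**
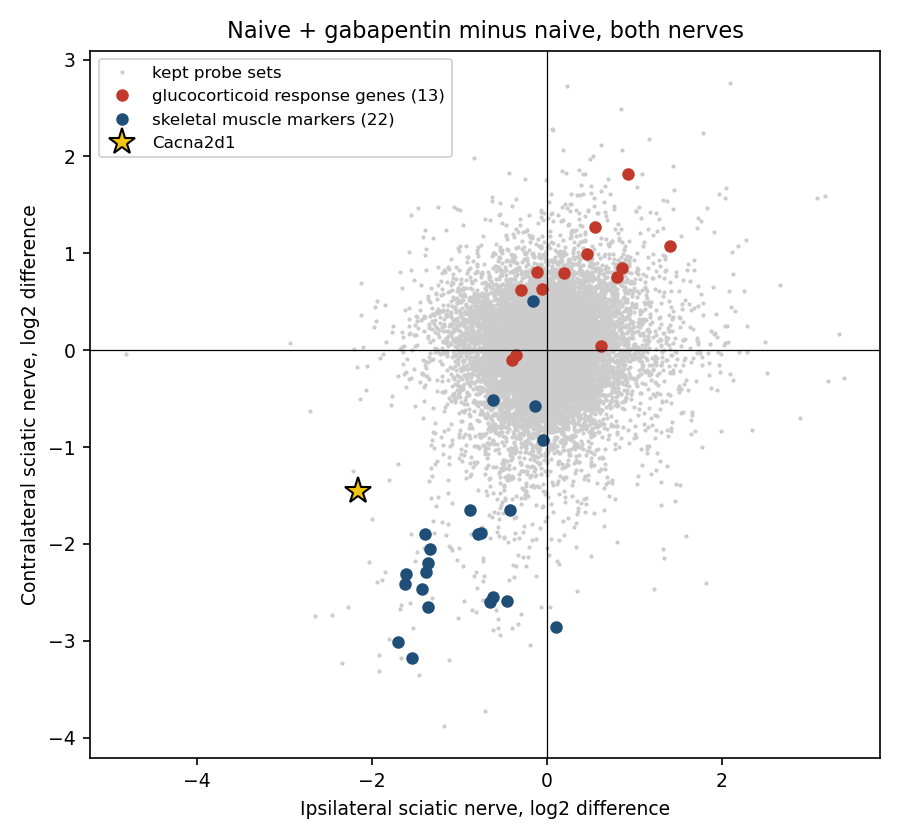
Log2 difference of each kept probe set, naive pools with gabapentin minus naive pools, in the ipsilateral (horizontal) and contralateral (vertical) sciatic nerve. Most of the 22 muscle markers and Cacna2d1 are below 0 on both sides, and most of the 13 glucocorticoid response genes are above 0 on the contralateral side.

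In DRG, 1 probe set passed, 0.00636%, and it fell: the Alox15 probe set above, with a difference of -2.79 ± 0.22 (limma, n = 4 compartments, adjusted p = 0.00199). It was below the filter level in all 4 DRG compartments with gabapentin and above it in all 4 naive ones. It was thus tested only through the naive pools. No probe set rose. Nociceptor and pan-neuronal markers had median differences between -0.17 and 0.12 in the 4 DRG, and none of them passed there.

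In spinal cord, 3 probe sets fell, 0.0191%, and none rose. They measure Alb, albumin, at -3.09 ± 0.25, Cdc42se2, a small effector of the GTPase Cdc42, at -2.49 ± 0.25, and Alox15, at -2.47 ± 0.30 (limma, n = 2 sides, adjusted p = 0.0026, 0.0117 and 0.0464). The Alb and Alox15 probe sets do not represent their genes and were named after their values were seen. Alox15 was below the filter level of both cord compartments with gabapentin and above it in naive cord, so it was tested only through the naive pools. Alb signals with gabapentin were lower than those of Alox15, so its call rests on the naive pools in the same way. Alb had 10.98 and 7.34 in cord with gabapentin, against 139 and 105 in naive cord and 3.52 and 15.7 in sham cord. The same probe set went the other way in nerve, with 73.6 and 66.1 with gabapentin, against 9.22 and 5.58 in naive nerves, a rise of 2.53 ± 0.25 (adjusted p = 0.00359). The difference between these tissues was 5.62 ± 0.36 (adjusted p = 0.000325). It carries the same limit, since the low values are near the floor in both tissues. The albumin probe set that represents the gene did not follow, with 11.4 and 12.5 in cord with gabapentin, against 22.1 and 1.38 in naive cord. Cdc42se2 had 14.3 and 8.08 in cord with gabapentin, against 91.9 and 72.6 in naive cord and 62.5 and 52.3 in sham cord. It was not checked singly against the filter level, and its signals with gabapentin were near those of Alox15.

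Brain had a single pair, so its differences are descriptions. The largest were lower with gabapentin and belong to the pituitary, the hormone gland below the brain. Gh1, growth hormone, had 9.90 with gabapentin, against 1794 in the naive pool and 27.9 in the sham pool. Prl, prolactin, had 3.82 with gabapentin, against 838 in the naive and 13.04 in the sham pool, and Pomc, the precursor of corticotropin, had 13.2, against 398 and 38.4. Log2 differences were -6.84, -6.46 and -4.41. Hbb-bs had 252 with gabapentin, against 1734 in the naive and 231 in the sham pool, and Hbb 1213, against 4318 and 1364. The naive pool was the highest of these 3 brain pools for all 5 genes. Sncg, gamma-synuclein, had 12.2 with gabapentin, against 96.6 in the naive and 60.2 in the sham pool, and Usp4, a deubiquitinase, had a difference of -2.46. Ppp1r2, a phosphatase inhibitor, had 63.1 with gabapentin, against 3.50 in the naive and 56.2 in the sham pool. Mef2c, a transcription factor, Gmfb, glia maturation factor beta, Camk4, a calcium-dependent kinase, Ctrc, a digestive protease, and Cideb were the other leading positive differences. If the brain pair is assumed to vary like the other compartments, 3 probe sets were called higher, 0.0191%, and 17 lower, 0.108%.

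**Figure D5:**
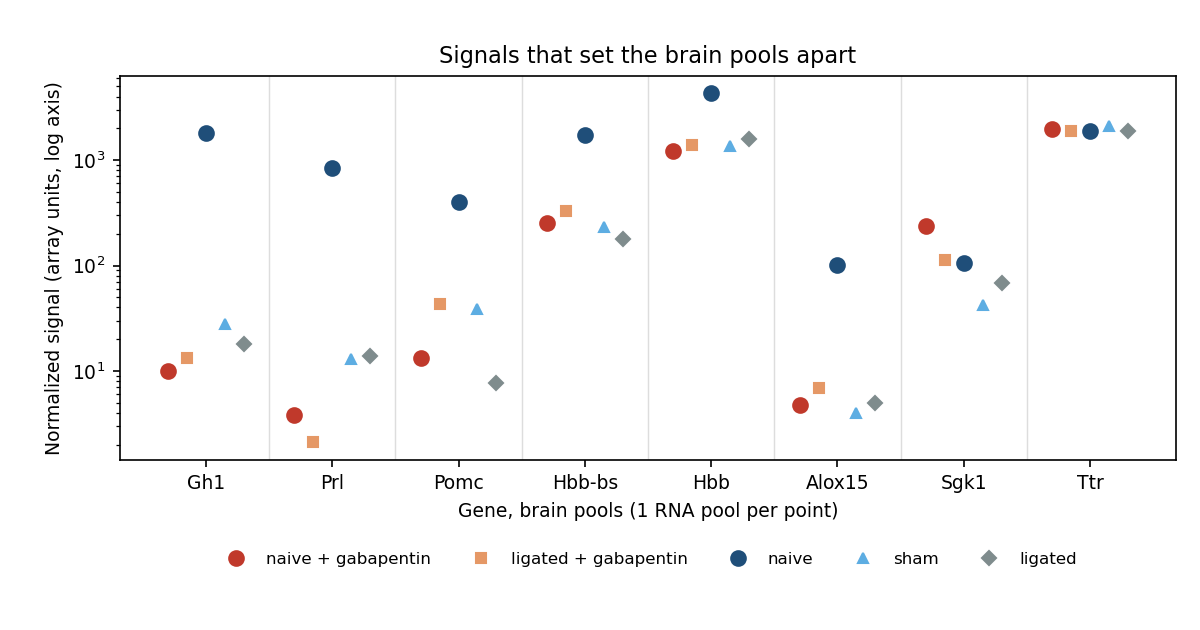
Signals of 8 genes in the 5 brain pools on a log axis, 1 point per RNA pool. The naive pool stands above the other 4 for the pituitary genes Gh1, Prl and Pomc, for the globins and for Alox15, while Sgk1 is highest in the naive pool with gabapentin and Ttr is level.

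Tissues differed from each other in few probe sets. Between DRG and cord 0 of 15721 passed (limma; 1314 had an unadjusted p under 0.05). Between nerve and cord 2 passed, Alb, with the limit given for cord, and a probe set of Rbfox1. Between DRG and nerve 5 passed, of which 4, or 0.0254%, were more positive in DRG. Hhatl was 2.80 and Rbfox1, an RNA splicing factor of neurons and muscle, 2.12 more positive in DRG than in nerve (adjusted p = 0.0133 and 0.0111). Neither passed with the deposited scaling or against sham pools, where the values were 0.53 for Hhatl and -0.19 for Rbfox1. Rbfox1 had 40.2 and 26.7 in nerves with gabapentin, against 120 and 127 in naive nerves and 30.1 and 22.1 in sham nerves.

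Counted per compartment, with no test, between 1.01% of probe sets (contralateral L4 DRG, 159 of 15720) and 5.37% (ipsilateral cord, 845 of 15721) differed 2-fold or more. The share was 1.69% in the ipsilateral L4, 1.9% in L5 and 2.56% in L6 DRG. It was 4.75% and 4.58% in the ipsilateral and contralateral nerve, 1.26% in the contralateral cord and 2.56% in brain. The next counts use probe sets kept by their mean over both sides of a tissue, so the totals differ from the single-compartment ones. In L4 DRG 15 probe sets passed 2-fold in the same direction on both sides, 4.79% of the ipsilateral and 7.32% of the contralateral ones, and 15 passed in opposite directions. In nerve 141 shared a direction, 17.9% and 18.6% of each side's, against 29 opposite. In cord 49 did, 5.36% of the ipsilateral and 23.8% of the contralateral ones, against 29 opposite.

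Leading genes that did not pass over the 9 compartments, named after their values were seen, included muscle, blood and interferon response genes. Myh7, a slow muscle myosin, had a mean difference of -0.64, H19, an imprinted noncoding RNA, -1.22, and Usp3, a deubiquitinase, -1.02, each lower in 9 of 9 pairs (limma, adjusted p = 0.169, 0.233 and 0.233). Usp18, which limits interferon signalling, had a signal of 36.1 to 74.9 with a median of 44.4 in pools with gabapentin, against 25.0 to 42.2 with a median of 28.8 in naive pools. Its mean difference was 0.52 ± 0.10, and it was higher in 9 of 9 pairs (limma, adjusted p = 0.233). Of the 11 kept interferon response genes, 10 had a positive mean and 1 a negative one, with a median of 0.21 and no member past the threshold. Irf7, a transcription factor of that response, had 0.66 and Mx2, an antiviral protein, 0.33. Set against sham pools the list's median was -0.14, and in the ligated pair it was -0.07. Respiratory chain genes had a median of -0.14, with 25 of 29 kept genes below 0. With the deposited scaling their median was 0.04, with 11 of 29 below 0. In that scaling the median of all probe sets was 0.17, with 88.5% above 0. In nerve Cox5b and Uqcrc2, subunits of that chain, fell by 0.81 and 1.06 (limma, adjusted p = 0.032 and 0.023). They were 2 of 29 tested, where 0.363% of all probe sets fell. Further subunits not in that count, named after their values were seen, also fell there. Ndufs7 fell by 0.78, Ndufv3 by 0.89, Ndufb3 by 1 and a probe set of COX3 by 1.48 (limma, adjusted p = 0.0292, 0.0278, 0.023 and 0.0444).

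Set against sham in place of naive pools, 192 probe sets passed over the 9 compartments, or 1.22%, with 75 higher and 117 lower. Of these 192, 1 also passed against naive pools, the lower Alox15 probe set. Errfi1 was among the 192, with a mean difference of 0.62 (limma, adjusted p = 0.0231). Sham rats differ from naive rats in their surgery as well, so drug and surgery cannot be told apart there.

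A fit over the 5 treatment pools, each averaged over 8 compartments, set the 2 pools with gabapentin against the 3 without it, with ligation as a term. It passed 0 of 15721 probe sets (limma, lowest adjusted p 0.999; 381 had an unadjusted p under 0.05, or 2.42%). By unadjusted p, among probe sets that represent a gene, the leading genes were Gpam, an enzyme of triglyceride synthesis, at 0.48 ± 0.09, Nfkbia at 0.41 ± 0.08, Slit3, an axon guidance protein, at -0.51 ± 0.11, Errfi1 at 0.47 ± 0.10, Gcm1, a placental transcription factor, at -0.47 ± 0.10, and Mef2c at 0.58 ± 0.13. For Errfi1 the mean log2 level was 6.95 in naive and 6.52 in ligated pools with gabapentin, against 6.57 in naive, 6.33 in sham and 6.10 in ligated pools. In the ligated pools alone, 0 probe sets passed over 8 compartments (limma; 1570 had an unadjusted p under 0.05). Across 15721 probe sets, the naive and the ligated mean differences had a Pearson r of -0.13, over probe sets that are not independent, and shared a sign in 46.6%.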

How the data were processed

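RNA of 52 pools was measured on 3 Affymetrix rat U34 arrays each (A, B and C), and 18 pools enter the comparison. The deposited intensity values are linear signals made with MAS5, per the submitters' processing notes, with no version given in the sources used here. Total RNA was extracted with Trizol, per the labels. Arrays were quantile normalized within array type and compartment over all pools. The log2 was taken after adding a constant, the 20th percentile of an array type (5.8, 4.5 and 6.2 for A, B and C). Probe sets with a mean above the 40th percentile were kept, 15721 of 26379, leaving out 177 controls. This filter used the mean of both groups over the compartments of each fit, so the probe sets tested differ between fits. The brightest probe set represented a gene. A single gene symbol was available for 18178 probe sets, several for 391 and none for 7633, and 18122 were updated to current symbols.

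Tests used limma 3.58.1 in R 4.3.3 (eBayes with trend, two-sided, Benjamini-Hochberg over all kept probe sets, 0.05), and were tested on simulated data. Differences were fitted over 9 compartments, by tissue (4 DRG, 2 nerve, 2 cord and 1 brain pair) and over 5 pool means. The fit by tissue shared a common spread among the tissues. Genes were named by size among those that passed, with the same sign in all 9 compartments for the mean over compartments, by the 6 largest in each direction per tissue, by up to 4 members per list, and in full for the calcium channel, thrombospondin, clock and amino acid lists. Genes outside this rule are said to be chosen after their values were seen, or belong to a list or marker whose count is given. The compartments, the 40 gene lists (825 entries) and the marker genes were chosen with earlier results of these data known. Alternatives covered scaling, constant, filter, units, spread model and left-out compartments. The number of arrays limits the precision.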

Additional observations from a re-analysis of the deposited data

Results flagged for a closer look

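Of 46 genes whose 9 compartment differences were examined, 7 had 1 compartment far from the others, where chance alone sets about 5% of groups apart. Errfi1 had 1.81 in the contralateral nerve, against 0.01 to 0.92 elsewhere. Gpam had -1.66 in L6 DRG, against 0.05 to 1.43 elsewhere. Cacna1c had -0.83 in L5 DRG, against -0.32 to 0.14 elsewhere. Cacng1 had -2.04 in the contralateral nerve, against -0.79 to 0.33 elsewhere. Bcat1 and Bcat2 had 0.82 and 0.63 in the ipsilateral nerve, against -0.07 to 0.26 for Bcat1 and -0.39 to -0.07 for Bcat2 elsewhere. Hbb-bs had -2.76 in brain, against -1.5 to -0.36 elsewhere.

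Hhatl and Rbfox1 differed between tissues by the test of the difference itself: their DRG difference exceeded their nerve difference by 2.80 and 2.12 (limma, adjusted p = 0.0133 and 0.0111). Each was higher with gabapentin in 4 of 4 DRG pairs and lower in 2 of 2 nerve pairs. No probe set passed this contrast with the deposited scaling or against sham pools, where Hhatl had 0.53 and Rbfox1 -0.19, and 1 to 2 of the 5 passed with a DRG compartment left out.

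Among DRG pools with no partner, the lower Alox15 probe set had a signal of 8.78 in the contralateral L6 DRG of naive rats with gabapentin, and of 132 in the contralateral L5 DRG of naive rats. These pools entered no comparison.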

How the results depend on the processing

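Each count below is of probe sets that passed, set beside the count in the report. Differences of 2-fold or more numbered 10084 over the 9 compartments with the deposited scaling, 2197 with the constant at the 40th percentile and 11733 with no filter, against 4040. The count over 9 compartments, 2, was 1 with median scaling, with sides averaged, with tissue as a random block, without sciatic nerve and without trend, 0 with 1 difference per tissue, and 1 to 3 with each compartment left out. In nerve, 97 became 20 with the deposited scaling (17 higher and 3 lower), 55 with median scaling (30 higher and 25 lower), 154 with the constant at the 40th percentile, 61 with no filter, 60 without trend and 28 to 106 with a DRG compartment left out (28 without the contralateral L4 DRG). In cord, 3 became 1 with the deposited scaling. In brain, 20 became 8 with the deposited scaling, 12 with median scaling and 9 with no filter. In DRG, 1 became 2 with a constant of 1, and 1 to 2 with a compartment left out. Between DRG and cord, 0 became 1 with the constant at the 40th percentile and 2 with no filter. Between nerve and cord, 2 became 4 with a constant of 1 or no filter, and 1 to 3 with a compartment left out. Between DRG and nerve, 5 became 0 with the deposited scaling, 17 with a constant of 1, 3 with the constant at the 40th percentile, and 1 to 2 with a compartment left out. Over pool means, 0 became 2 without the naive pool and stayed 0 without each other pool. The covariates and the sham pools were chosen after seeing the data. With red blood cell markers as a covariate 0 passed over the 9 compartments. With muscle markers 0 passed in nerve and 1 between nerve and cord. Against sham pools 192 passed over the 9 compartments, 2 in DRG, 0 in nerve, 1 in cord, 1 in brain, and 0 between nerve and cord or DRG and nerve. The sign turned against sham for Cpxm2 in nerve (-0.16), Gmfb (-0.47) and Hbb-bs (0.12) in brain, and Rbfox1 between DRG and nerve (-0.19). The deposited scaling put the median of all probe sets at 0.17, with 88.5% above 0, against 51.3%. The cause of these changes was not tested.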
